A study of Mus musculus with 6 samples.

Results

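Respiratory complex I genes were followed in the livers of mice fed chow with or without a plastic. The genes were taken as every row of the count table whose symbol begins with Nduf, without pseudogene symbols ending in -ps and without rows of fewer than 10 reads over the 6 libraries. Of 54 such symbols, 3 were pseudogenes and 2 had too few reads, which left 49 genes among the 56674 rows of the table. They comprised 7 core subunits, 29 accessory subunits, 8 assembly factors of the Ndufaf series and 5 further genes that carry an Nduf name. The control group (3 libraries) was liver of male C57BL/6 mice, an inbred laboratory strain, on normal chow. The PB-MP group (3 libraries) was liver of the same strain and sex on chow containing polypropylene black microplastic. Both groups were kept for 71 weeks at a controlled temperature. The comparison addressed the hepatic response to prolonged exposure to this plastic. The labels give neither the dose and particle size nor whether libraries within a group are from separate animals, so each p-value here reflects the variation among these samples, part of which may be technical.

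Complex I is the entry point of electrons from NADH into the mitochondrial respiratory chain. Its matrix arm oxidises NADH and passes the electrons along a chain of iron-sulfur clusters to ubiquinone, and its membrane arm pumps protons. The core subunits carry out this chemistry and are shared with bacteria, the accessory subunits surround and stabilise them, and the assembly factors help to build the complex but are not part of the finished enzyme. The nucleus encodes the core subunits of the matrix arm, all accessory subunits and the assembly factors, whereas the core subunits of the membrane arm are encoded by mitochondrial DNA. Hepatocytes are rich in mitochondria.

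The libraries held 68357478 to 112566641 counted reads. Levels below are CPM, the reads of a gene relative to 1000000 reads of its library, after scaling by the trimmed mean of M-values (TMM), with factors of 0.887 to 0.961 for control libraries and 1.04 to 1.12 for PB-MP libraries. Markers of hepatocytes were present in full (10 of 10, with summed levels of 73955 ± 6903 CPM for control and 75907 ± 4433 for PB-MP libraries, SD, n = 3 each). Alb made up most of these sums, at 51578 CPM in control and 52495 CPM in PB-MP. Of the 10 log2 fold changes of PB-MP over control, 6 were below 0 and 4 above. They ran from -0.31 for Cyp2e1 to 1.18 for Apoa1. Across all 17871 genes tested, 0 (0%) had a Benjamini-Hochberg adjusted p below 0.05 by the quasi-likelihood test of edgeR, and 2161 had an unadjusted p below 0.05. For complex I genes 2 libraries stood apart from the others of their group. Of the 36 subunits, 29 (80.6%) were lower in control replicate 2 than in both other controls, against 35.9% of all genes tested. PB-MP replicate 3 was the highest of the 3 PB-MP libraries for 32 of the 36 (88.9%), where 37.1% of all genes had their highest value there. The comparison is therefore given with and without these 2 libraries.

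The upstream sequences of the genes are shown first. Their relation to the differences between libraries was not tested. RefSeq windows on GRCm38.p6, running from 250 bases before to 50 bases after the first base of the gene, could be matched for 32 of the 36 subunits and 7 of the 8 assembly factors. They were searched on both strands for letters associated with 6 factors or elements. The YY1 letters AANATGGC were in 11 of the 32 subunit windows (34.4%), compared with 8.34% of the windows of 11609 genes tested and 6.23% of all 27025 windows. The NRF1 letters, GCGCA and GCGC with any 1 base between them, were in 7 (21.9%, against 9.55% of genes tested), and the cyclic AMP response element letters TGACGTCA were in 3 (9.38%, against 3.01%). The ETS letters CCGGAAG, read by GABP, were in 4 (12.5%, against 16.9%), the E-box letters CACGTG in 2 (6.25%, against 9.74%) and the CCAAT letters in 9 (28.1%, against 38.8%). The YY1 letters share the start codon ATG with coding sequence, and CACGTG and TGACGTCA share their central ACGT. A match is a description of the letters and not a measured binding site.

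In 7 of the 32 subunit windows (21.9%) the YY1 letters lay after the first base of the gene, against 4.0% of the windows of genes tested. They did so in 1 of the 7 assembly factor windows too. All 8 matches read the same 8 letters on the strand of the gene and began between base 11 and base 39. In 7 of the 8, all but Ndufaf8, the ATG in the match is an annotated start codon in GENCODE M21. The search fixed these letters except at N, where all 8 read G, so their likeness is largely set by the search. The matches are printed with up to 8 flanking bases, 5′ to 3′ on the strand of the gene, with the YY1 letters in capitals.
Ndufs7 (chr10:80249465-80249488, + strand): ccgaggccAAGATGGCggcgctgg
Ndufs4 (chr13:114388045-114388067, - strand): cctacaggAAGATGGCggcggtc
Ndufs6 (chr13:73328434-73328457, - strand): tcaccggcAAGATGGCggcggtgc
Ndufa9 (chr6:126849100-126849123, - strand): tgtgggagAAGATGGCggccgccg
Ndufa3 (chr7:3617387-3617410, + strand): ccaagaacAAGATGGCcgggagta
Ndufb8 (chr19:44555393-44555412, - strand): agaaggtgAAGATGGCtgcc
Ndufc1 (chr3:51408918-51408941, - strand): tgcggaacAAGATGGCgccgtccg
Ndufaf8 (chr11:120098936-120098959, + strand): cagggcccAAGATGGCggcgccct

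Further upstream, the response element letters TGACGTCA were found in the windows of 3 accessory subunits of the membrane arm and are in capitals below. Ndufa10 is shown because it had the smallest p of the Nduf genes. Its match began 67 bases before the first base of the gene, that of Ndufa11 began 158 bases before it and that of Ndufb2 began 14 bases before it.
Ndufa10 (chr1:92473810-92473833, - strand): ctcagtggTGACGTCAtggcagcg
Ndufa11 (chr17:56717596-56717619, + strand): acctttccTGACGTCAcgggcgtc
Ndufb2 (chr6:39592543-39592566, + strand): cgacgcagTGACGTCAcgggccgg
The NRF1 letters, in capitals in the next set, occurred in 7 of the 27 accessory subunit windows and 2 of the 7 assembly factor windows. They were in 0 of the 5 core subunit windows, against 9.55% of genes tested, and with so few windows this is no contrast. Ndufb4 held 3 matches, of which the nearest to the gene is printed. Ndufaf4 is shown as the assembly factor with the smallest p, Ndufa8 as an accessory subunit among those of smallest p, and Ndufa6 as the subunit with the highest fold change.
Ndufb4 (chr16:37654373-37654398, - strand): tcatatccGCGCAGGCGCagatgtgc
Ndufa8 (chr2:36049351-36049376, - strand): agagcagtGCGCTTGCGCgtcgctgg
Ndufa6 (chr15:82354251-82354276, - strand): gtggcaccGCGCGTGCGCacgctgaa
Ndufaf4 (chr4:24897962-24897987, + strand): agatgtctGCGCATGCGCctgtgcgg
Ndufa6 differed from the others in that its match lay after the first base of the gene, at base 24.

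Complex I transcripts were abundant in all 6 libraries, and the assembly factors were far less so. Compared per kilobase of transcript, the control means of the subunits ran from 18.5 CPM per kb for Ndufs1, the large iron-sulfur protein of the matrix arm, to 323 for Ndufb9, a membrane arm subunit. The median was 97.4 CPM per kb for the 7 core subunits, 90.9 for the 29 accessory subunits and 7.11 for the 8 assembly factors. Assembly factors ran from 2.27 for Ndufaf5 to 18.1 for Ndufaf8, so the control mean of each was below that of every subunit. Ndufaf8 and Ndufs1 were close, and in control replicate 3 Ndufaf8 was the higher, at 21.3 against 18.8 CPM per kb. After Ndufb9 the most abundant subunits were Ndufa7 (214), Ndufa3 (203) and Ndufa6 (186), and the least abundant after Ndufs1 were Ndufc1 (25.1), Ndufs4 (34.8) and Ndufa9 (36.2). Ndufa4, which carries a complex I name but is a subunit of complex IV, stood above them all at 413. Many neighbours in this order did not differ beyond the spread of their control libraries, as the overlapping points in the plot of levels per kilobase show.

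**Figure D1:**
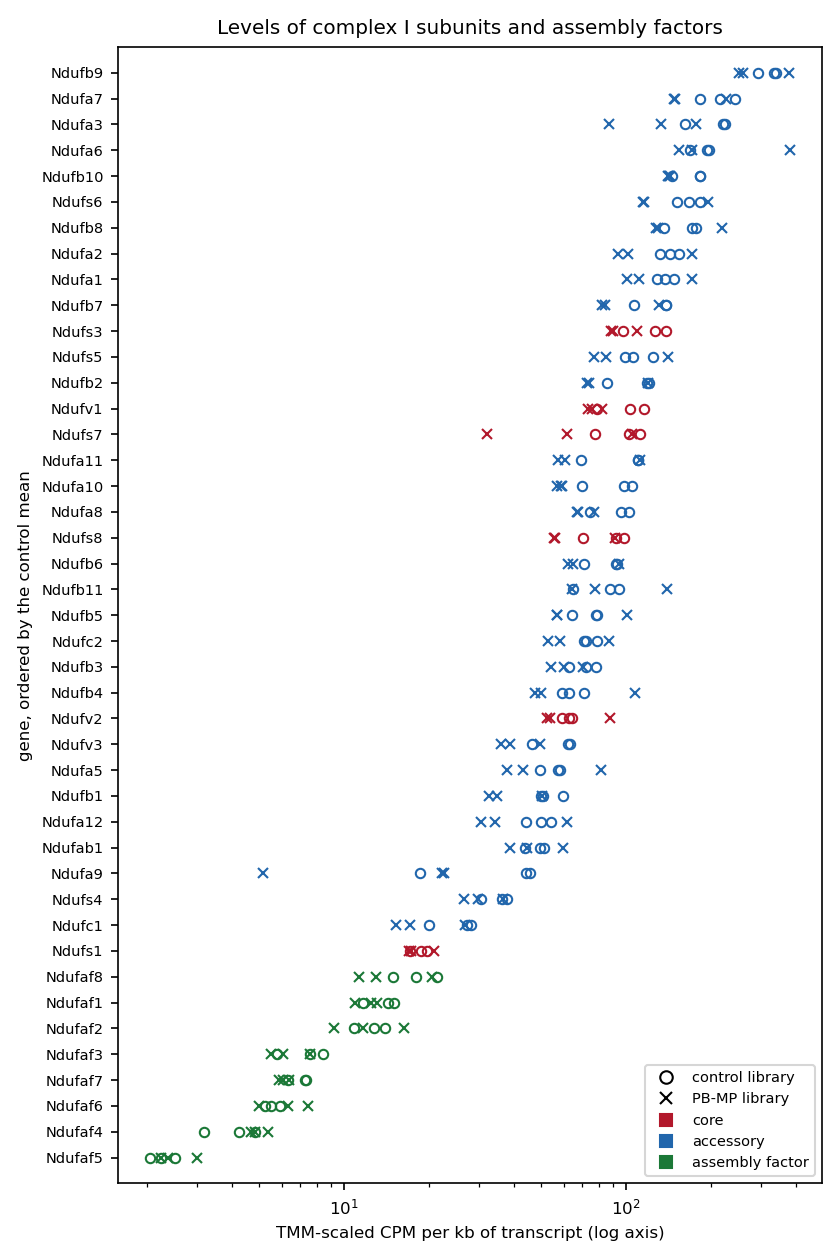
Levels of 35 nuclear complex I subunits and 8 assembly factors in TMM-scaled CPM per kb of transcript, on a log axis. Each circle is a control library and each cross a PB-MP library. Genes are ordered by their control mean, and the assembly factors form the lower end, from 2.27 for Ndufaf5 to 18.1 for Ndufaf8.

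The subunit Ndufa13, an essential part of the membrane arm, was listed at 0 reads in each of the 6 libraries. A count of 0 allows up to 3 reads, or 0.0267 to 0.0439 CPM of the unscaled library totals, counting error only. The limit holds only if the annotation used for counting could assign reads to this gene, which was not tested. It is not among the 49 genes. Ndufb11b was also listed at 0 in every library, and Ndufa11b had too few reads to be tested, which left 48 genes in the comparison.

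Not 1 of the 48 Nduf genes passed the test of PB-MP against control. The number at an adjusted p below 0.05 was 0 in edgeR, 0 in DESeq2, which called 2.46% of 20865 genes, and 0 in limma-voom. At an unadjusted p below 0.05, 2 were lower in PB-MP, where 4.74% of all genes were lower, and 0 were higher, where 7.35% were. Most estimates nonetheless lay on the same side: 40 of 48 log2 fold changes of PB-MP over control were below 0, against 49.4% of all genes tested. They ran from -1.11 for Ndufa9 to 0.48 for Ndufs6b, with a median of -0.19 beside 0.01 for all genes. There was no overlap between groups for 3 genes, all lower (Ndufa10, Ndufb10 and Ndufb4c), against 8.49% of all genes lower and 11.4% higher. In a bulk tissue, fewer cells of a type and less RNA per cell cannot be told apart.

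The comparison also gives how large a change remains possible. For 41 of the 48 genes (85.4%) the 95% interval was within 1 of 0 on the log2 scale, that is within 2-fold either way, against 45.7% of all genes tested. This was so for 6 of 7 core subunits, 24 of 29 accessory subunits and 8 of 8 assembly factors. Of the core subunits, Ndufs7 was the exception, at -1.50 to 0.39. The widest interval of a subunit was that of Ndufa9, at -2.49 to 0.26.

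**Figure D2:**
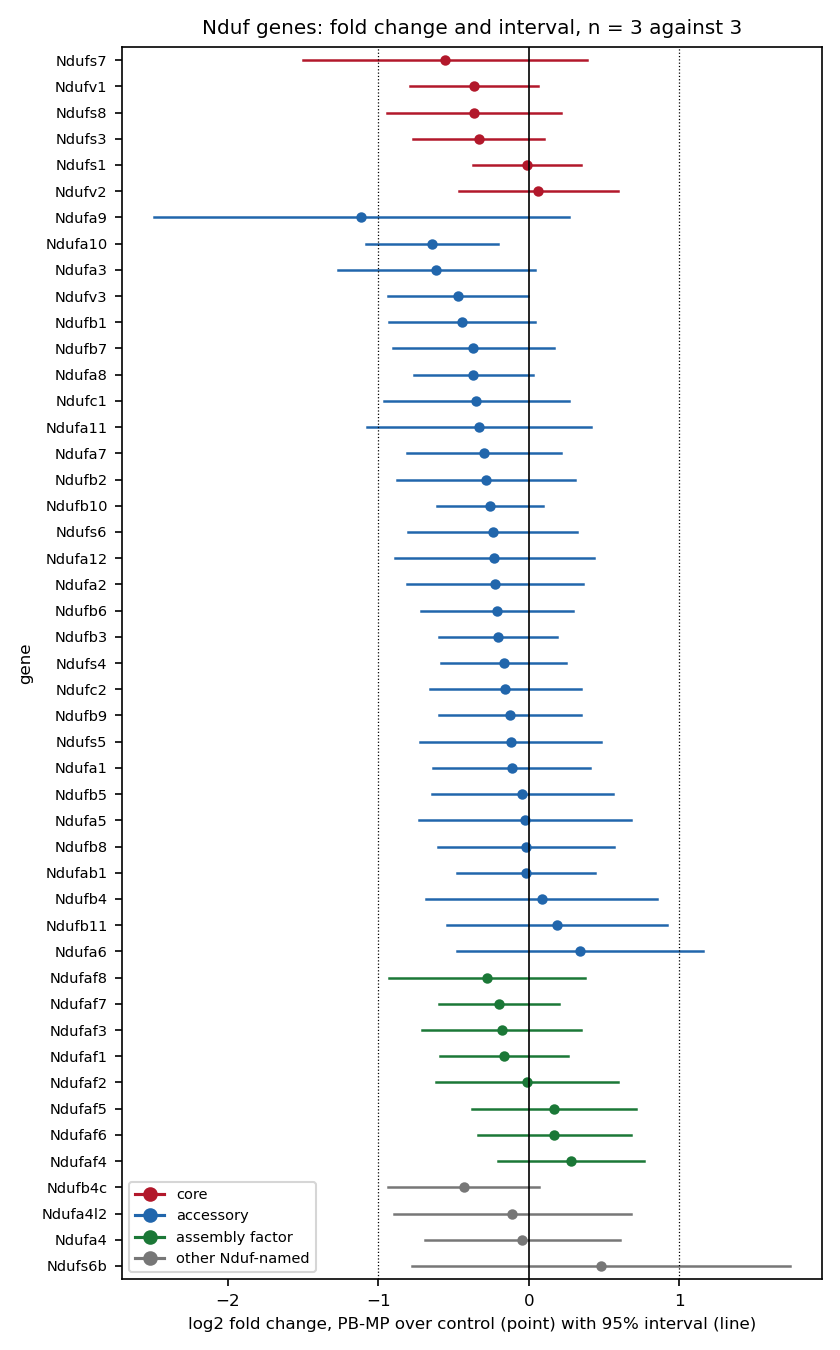
Log2 fold changes of PB-MP over control (points) and their 95% intervals (lines) for 47 of the tested Nduf genes, by class, from edgeR with 3 libraries a group. Dotted lines mark a 2-fold change either way. The intervals of 40 of these genes stay between them, and 39 points are left of 0.

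The core subunits had 6 of 7 estimates below 0, at a median log2 fold change of -0.33, and 0 of them passed the test. Their summed level was 918, 696 and 869 CPM in control replicates 1, 2 and 3 and 621, 635 and 841 CPM in PB-MP replicates 1, 2 and 3. PB-MP replicates 1 and 2 were below every control, and PB-MP replicate 3 was above control replicate 2, so the groups overlapped (828 ± 117 and 699 ± 123 CPM, SD, n = 3).

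Ndufv1 binds NADH and the flavin at the entry of the electron path. It had 192, 130.4 and 172 CPM in control and 126, 137 and 122 CPM in PB-MP. Control replicate 2 fell among the PB-MP values, while the other controls were above all of them. Its log2 fold change was -0.36 ± 0.18 (SE; adjusted p = 0.465 in edgeR with Benjamini-Hochberg adjustment), the smallest p of the core subunits. Ndufv2, its iron-sulfur partner, had 106, 100.1 and 109 CPM in control and 89.2, 91.5 and 149 CPM in PB-MP (0.06 ± 0.22). It was the core subunit with an estimate above 0, and PB-MP replicate 3 alone lay above the controls. Ndufs1, which carries several of the iron-sulfur clusters, had 51.1, 44.5 and 48.6 CPM in control and 44.8, 44.1 and 53.9 CPM in PB-MP. Its libraries were intermixed, and its log2 fold change of -0.01 ± 0.15 had the narrowest interval of the core, -0.37 to 0.34.

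Ndufs7 carries the last iron-sulfur cluster of the electron path, next to the ubiquinone site. It had 84.6, 59.0 and 77.9 CPM in control and 46.9, 24.3 and 79.4 CPM in PB-MP. PB-MP replicate 2 was far below all other libraries and PB-MP replicate 3 was within the control range, which left the estimate at -0.56 ± 0.40. Ndufs3 is a structural core subunit of the matrix arm. It had 145, 102 and 132 CPM in control and 94.0, 92.6 and 114 CPM in PB-MP (-0.33 ± 0.18). Ndufs8, an iron-sulfur protein, had 90.3, 69.1 and 96.5 CPM in control and 54.7, 54.8 and 89.6 CPM in PB-MP (-0.36 ± 0.25). For both genes PB-MP replicates 1 and 2 were below every control and PB-MP replicate 3 was among the controls.

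PB-MP replicates 1 and 2 had the lowest summed levels of accessory subunits too. Of 29, 26 had estimates below 0, at a median of -0.23, and 0 passed the test. The median was -0.23 for the 9 subunits of the matrix arm (8 below 0) and -0.21 for the 19 of the membrane arm (17 below 0). The sum over all 29 was 2439, 2085 and 2535 CPM in control replicates 1, 2 and 3 and 1718, 1719 and 2654 CPM in PB-MP replicates 1, 2 and 3. PB-MP replicate 3 was the highest of the 6 libraries, unlike for the core (2353 ± 237 and 2030 ± 540 CPM).

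Ndufa10 belongs to the nucleoside kinase family by sequence and sits in the membrane arm. It had 199, 141 and 212 CPM in control and 115, 119 and 119 CPM in PB-MP. All 3 PB-MP libraries were below all 3 controls and close to each other, PB-MP replicate 3 included. The log2 fold change was -0.64 ± 0.19 (SE), the unadjusted p was 0.0105 and the adjusted p was 0.286 in edgeR with Benjamini-Hochberg adjustment over all genes. DESeq2 gave it an adjusted p of 0.190, the smallest of the Nduf genes there. Ndufb10, a membrane arm subunit facing the intermembrane space, was the other subunit without overlap. It had 134, 107 and 133 CPM in control and 105, 103 and 104 CPM in PB-MP, with control replicate 2 close above the PB-MP libraries (-0.26 ± 0.15).

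In the matrix arm, Ndufv3, a small subunit near the NADH site, had 100.2, 73.1 and 98.7 CPM in control and 56.8, 61.3 and 78.1 CPM in PB-MP. PB-MP replicate 3 lay above control replicate 2 and below the other controls (-0.47 ± 0.20, unadjusted p = 0.0467 and adjusted p = 0.408 in edgeR). Ndufa9, which binds a nicotinamide nucleotide near the ubiquinone site, behaved differently from the rest. It had 66.1, 63.8 and 26.8 CPM in control and 32.7, 32.2 and 7.44 CPM in PB-MP. Control replicate 3 was below PB-MP replicates 1 and 2, and PB-MP replicate 3, where most subunits were high, was the lowest library. This gave the most negative estimate of all the genes and the widest error of a subunit, -1.11 ± 0.58. At the other end, Ndufa6, which anchors an acyl carrier protein to the matrix arm, had 99.3, 116 and 114 CPM in control and 101, 91.0 and 225 CPM in PB-MP. PB-MP replicate 3 alone exceeded the controls, and the log2 fold change was 0.34 ± 0.35.

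Ndufa3, Ndufa8, Ndufb1 and Ndufb7 belong to the membrane arm, and Ndufa8 and Ndufb7 face the intermembrane space. Ndufa3 had 114, 83.3 and 116 CPM in control and 44.8, 68.2 and 91.4 CPM in PB-MP (-0.62 ± 0.28). Ndufa8 had 88.1, 64.3 and 82.4 CPM in control and 57.6, 58.1 and 66.0 CPM in PB-MP (-0.37 ± 0.17). For these subunits the overlap came from PB-MP replicate 3 and control replicate 2 alone. Ndufb1 had 43.5, 42.9 and 51.2 CPM in control and 30.0, 28.1 and 43.2 CPM in PB-MP (-0.44 ± 0.21). Ndufb7 had 86.0, 66.4 and 86.6 CPM in control and 52.3, 51.4 and 81.2 CPM in PB-MP (-0.37 ± 0.23). Here too PB-MP replicate 3 was the only PB-MP library inside the control range.

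The accessory subunits with the largest p were Ndufab1 and Ndufb8. Ndufab1 is the mitochondrial acyl carrier protein, is present in both arms and also serves fatty acid synthesis in mitochondria. It had 70.3, 62.1 and 72.6 CPM in control and 63.0, 54.7 and 84.8 CPM in PB-MP (-0.02 ± 0.19). Ndufb8, of the membrane arm, had 119.9, 92.9 and 116 CPM in control and 88.4, 86.9 and 149 CPM in PB-MP (-0.02 ± 0.25). In both, PB-MP replicate 3 was above every control and PB-MP replicate 2 below every control, so an estimate near 0 went with a wide spread. Ndufb11 and Ndufb4 were the other accessory subunits with estimates above 0 (0.19 ± 0.31 and 0.08 ± 0.32), and PB-MP replicate 3 was the highest library for each, at 127 and 104 CPM.

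**Figure D3:**
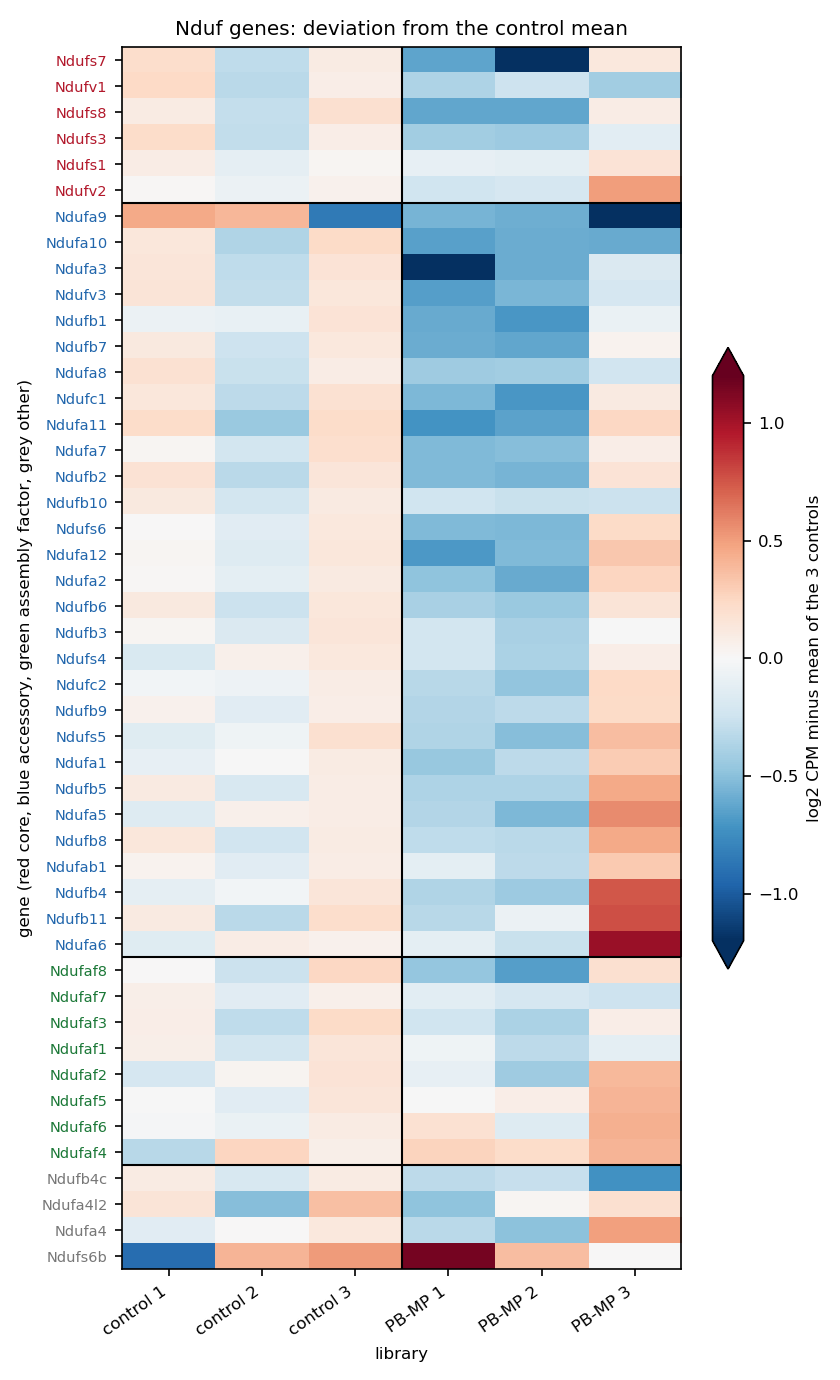
Log2 CPM of 47 of the tested Nduf genes in each library minus the mean of the 3 controls, in colour (blue lower, red higher, limited at the ends of the scale), with genes grouped by class. Most subunit rows are blue in PB-MP replicates 1 and 2, where 30 of 36 subunits were below every control, and pale or red in PB-MP replicate 3.

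The subunits split the PB-MP group into 2 low libraries and 1 that was not. PB-MP replicate 1 was below every control for 32 of the 36 subunits (88.9%) and PB-MP replicate 2 for 33 (91.7%), where 27.6% and 26.2% of all genes were. PB-MP replicate 3 was below every control for 4 (11.1%), against 30.4% of all genes, and above every control for 18 (50%), against 31.6%. PB-MP replicates 1 and 2 were both below all controls for 30 of the 36 (83.3%), a pattern that 16.8% of all genes had. The median subunit stood 0.67 higher on the log2 scale in PB-MP replicate 3 than in the mean of the other 2 PB-MP libraries. This median was 0.39 for core and 0.69 for accessory subunits, and -0.02 for all genes.

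These 2 libraries were noted for the values of the subunits themselves, so leaving them out widens the difference of these genes by construction and is no independent support. The number of Nduf genes at an unadjusted p below 0.05 then changed, while 0 passed an adjusted p below 0.05 in any of the fits. Without PB-MP replicate 3 it was 25 of 48, all lower, against 6.01% of all genes lower. The median was then -0.33 for core and -0.44 for accessory subunits, and 33 genes did not overlap between groups, all lower, against 16.7% of all genes. Without control replicate 2 it was 7, all lower, against 7.09% of all genes lower, at medians of -0.49 and -0.33. Without both libraries it was 32, all lower, against 11.4% of all genes, at medians of -0.49 for core and -0.53 for accessory subunits. The smallest adjusted p was then 0.126, for Ndufa10 among others (edgeR, Benjamini-Hochberg). In the other direction, the accessory median was -0.10 without PB-MP replicate 2 and -0.13 without PB-MP replicate 1. With all libraries kept but weighted by quality in limma-voom, 20 of the 48 were at an unadjusted p below 0.05, all lower, against 9.56% of all genes lower, at medians of -0.40 for core and -0.41 for accessory subunits. The smallest adjusted p of an Nduf gene was 0.0880 in that limma-voom fit.

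The direction also depends on the scaling. With library size alone as the scaling, the median of all genes was 0.23 and the medians of core subunits, accessory subunits and assembly factors were -0.12, -0.01 and 0.13, so that the assembly factors changed sign. Relative to the median of all genes, core subunits stood at -0.34 with TMM and -0.35 with library size alone, accessory subunits at -0.23 with both and assembly factors at -0.10 with both. With library size alone, 4 of 7 core subunits, 15 of 29 accessory subunits and 1 of 8 assembly factors had estimates below 0. As an unscaled share of all counted reads, the 36 subunits held 0.296% ± 0.0426 of control and 0.295% ± 0.0717 of PB-MP libraries (SD, n = 3). With library size alone 1 Nduf gene had an unadjusted p below 0.05, Ndufaf4, and it was higher, as were 14.1% of all genes.

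Most subunit transcripts are short, and short transcripts as a class differed between these libraries. The median transcript length was 1623 bases for core subunits, 732 for accessory subunits, 1309 for assembly factors and 2429 for the 16985 tested genes with a known length. Among all 2853 genes of under 1000 bases, the median deviation from the control mean was -0.21 in PB-MP replicate 1, -0.22 in PB-MP replicate 2 and 0.15 in PB-MP replicate 3. For the 23 subunits of under 1000 bases it was -0.43, -0.51 and 0.23. Among all 4013 genes of 1000 to 2000 bases it was -0.05, -0.09 and 0.17. For the 11 subunits of that length it was -0.41, -0.38 and 0.08. Genes of 4000 bases and over had medians of 0.17, 0.22 and -0.20 in the same libraries, the opposite order. PB-MP replicate 3 exceeded the mean of PB-MP replicates 1 and 2 by 0.29 for all short genes and by 0.71 for short subunits. Across the 36 subunits, length and this difference had a Spearman rho of -0.41, and across all genes of known length it was -0.36, as a description over genes of the same libraries. With log2 length the Pearson r was -0.40 for subunits and -0.11 for all genes, so their likeness depends on the measure. Length and the log2 fold change of PB-MP over control had a Spearman rho of -0.005 for subunits and 0.08 for all genes. The part of transcript length in the result was not tested.

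**Figure D4:**
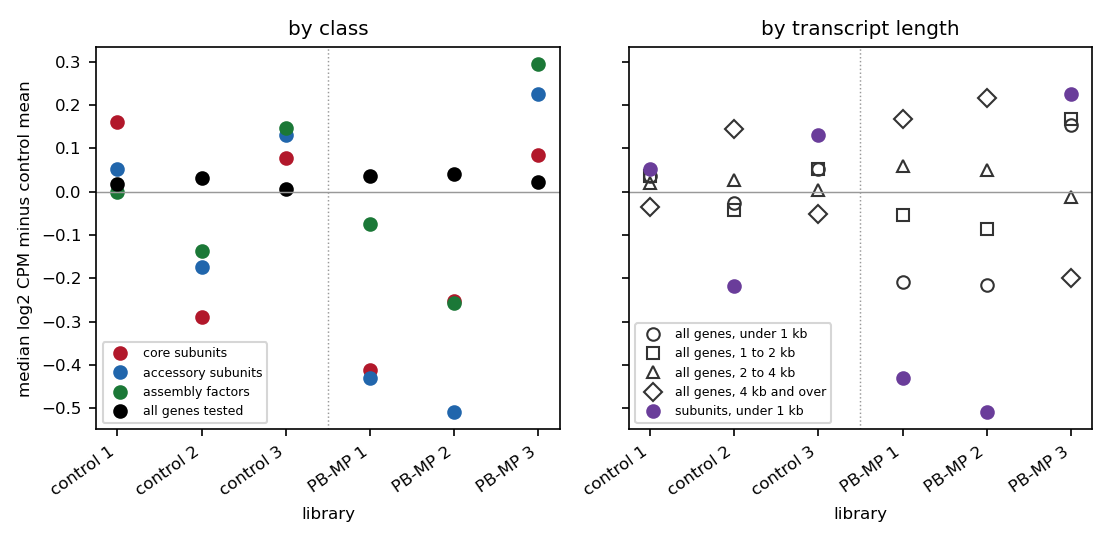
Median log2 CPM minus the control mean in each library, by class (left) and by transcript length (right, open symbols for all tested genes and filled for subunits of under 1 kb). Accessory subunits are lowest in PB-MP replicates 1 and 2, core subunits in PB-MP replicate 1 and control replicate 2, and short genes in general follow the same order at a smaller size, -0.21, -0.22 and 0.15 in the 3 PB-MP libraries.

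Markers of some other cell types also moved between these libraries. Of 7 adipocyte markers, Lep and Ucp1 were at 0 in all libraries and Adipoq and Plin1 at or near 0. Fabp4 had 3.70 to 4.78 CPM in control and 3.94, 3.77 and 7.56 CPM in PB-MP. The summed level of the list, most of it from Cidea and Cfd in every library but PB-MP replicate 2, was 93.5, 19.8 and 82.1 CPM in control and 17.4, 6.66 and 22.2 CPM in PB-MP. It was low in control replicate 2 and in PB-MP replicates 1 and 2, as the subunits were, and also in PB-MP replicate 3, where they were not. The 6 Kupffer cell and macrophage markers summed to 63.0 to 83.5 CPM in control, 85.4 and 93.4 CPM in PB-MP replicates 2 and 1 and 182 CPM in PB-MP replicate 3. The 5 stellate cell and fibroblast markers summed to 264 to 280.0 CPM in control and to 151, 263 and 233 CPM in PB-MP, without overlap. Of their estimates 4 were below 0 and 1 above, from -1.04 ± 0.28 for Col1a1 to 0.32 ± 0.39 for Lrat. The 5 erythroid markers summed to 264 to 507 CPM in control and to 429 to 633 CPM in PB-MP, with overlap. Of their estimates 4 were above 0, from 0.16 for Hba-a2 to 0.87 ± 0.36 for Hbb-bs, and Alas2 was at -0.12. Endothelial markers summed to 73.3 ± 8.27 CPM in control and 72.8 ± 18.9 CPM in PB-MP (SD, n = 3). Cholangiocyte markers summed to 6.29 ± 1.85 CPM in control and 4.91 ± 1.45 CPM in PB-MP. Of 6 muscle markers, 4 were at 0 in all libraries. The part of these cells in the result was not tested.

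The median of the assembly factors was nearer to 0 than those of core and accessory subunits with TMM, but farther from 0 than both with library size alone. Of 8, 5 had estimates below 0 and 3 above, at a median of -0.09, and 0 passed the test. The median was -0.16 without control replicate 2 and -0.18 without PB-MP replicate 3, and it turned to 0.0024 without control replicate 3 and to 0.04 without PB-MP replicate 2. Their sum was 86.4, 82.5 and 97.9 CPM in control and 84.2, 74.9 and 97.8 CPM in PB-MP, so the groups were intermixed (88.9 ± 8.03 and 85.6 ± 11.5 CPM). PB-MP replicates 1 and 2 were both below all controls for 1 of the 8, Ndufaf8. PB-MP replicate 3 exceeded their mean by a median of 0.38.

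Ndufaf3 and Ndufaf4 act together early, on the part of the matrix arm that holds the ubiquinone site. Ndufaf4 had 11.6, 17.5 and 15.4 CPM in control and 17.6, 17.0 and 19.5 CPM in PB-MP, with control replicate 1 as the lowest library. Its log2 fold change of 0.28 ± 0.20 had the smallest p of the class (unadjusted p = 0.215, adjusted p = 0.620 in edgeR). Ndufaf3 had 11.2, 8.59 and 12.5 CPM in control and 9.01, 8.19 and 11.3 CPM in PB-MP (-0.18 ± 0.22). The partners thus had estimates of opposite sign, neither past the test. Ndufaf5 hydroxylates Ndufs7, and Ndufaf8 is its binding partner. Ndufaf5, the least abundant factor, had 2.62, 2.39 and 2.92 CPM in control and 2.62, 2.78 and 3.51 CPM in PB-MP (0.17 ± 0.23). Ndufaf8 had 14.1, 11.7 and 16.7 CPM in control and 10.1, 8.84 and 16.0 CPM in PB-MP, with PB-MP replicates 1 and 2 low as for the subunits (-0.28 ± 0.28).

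Ndufaf7 is a methyltransferase that acts early in assembly. It had 12.8, 11.1 and 12.7 CPM in control and 11.1, 10.6 and 10.2 CPM in PB-MP, where PB-MP replicate 1 met control replicate 2 (-0.20 ± 0.17). Ndufaf1 works on the membrane arm, and had 20.7, 16.9 and 21.8 CPM in control and 19.0, 15.8 and 18.1 CPM in PB-MP (-0.17 ± 0.18). In both, every PB-MP library was below control replicates 1 and 3, and the overlap came from control replicate 2. Ndufaf2, a relative of the subunit Ndufa12 that acts late in assembly, had 7.37, 8.64 and 9.47 CPM in control and 7.91, 6.26 and 11.1 CPM in PB-MP (-0.01 ± 0.26). Ndufaf6, an early factor, had 5.95, 5.67 and 6.42 CPM in control and 6.84, 5.39 and 8.06 CPM in PB-MP (0.17 ± 0.22). For these genes PB-MP replicate 3 was the highest and PB-MP replicate 2 the lowest of the 6 libraries. An antisense gene covers 65.6% of the exon bases of Ndufaf2, and without the strand setting of the counting their reads cannot be told apart. That gene was listed with 77 reads over the 6 libraries, and Ndufaf2 with 524 to 1082 reads in each.

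Assembly genes outside the Ndufaf series summed to 299, 300.2 and 337 CPM in control and to 280, 253 and 292 CPM in PB-MP. These sums did not overlap between groups, unlike those of the Ndufaf genes. Of 11 measured, 9 had estimates below 0 at a median of -0.19, and 0 passed the test. Dmac2, a factor for the distal membrane arm, was the 1 gene at an unadjusted p below 0.05 in edgeR. It was lower in PB-MP, as were 4.74% of all genes at that p. Its levels were 15.8, 22.4 and 18.9 CPM in control and 13.0, 14.3 and 13.9 CPM in PB-MP (-0.47 ± 0.19). The groups did not overlap for Dmac2, Timmdc1 and Aifm1, lower in PB-MP, nor for Tmem186, higher in PB-MP at 12.2, 12.3 and 11.6 CPM against 10.8, 9.25 and 10.9 CPM. Of all genes tested, 8.49% were without overlap and lower and 11.4% without overlap and higher. Aifm1, which imports complex I subunits together with its partner Chchd4, had 85.5, 80.7 and 87.9 CPM in control and 74.6, 68.9 and 68.7 CPM in PB-MP (-0.26 ± 0.13). As these 4 genes were picked for having no overlap, PB-MP replicate 3 lies on the side of the other PB-MP libraries by construction. Tmem126b, a membrane arm factor, had the highest estimate, 0.33 ± 0.23.

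The 7 complex I subunits encoded by mitochondrial DNA did not share the library order of the nuclear subunits. Their summed level was 48973, 58059 and 55598 CPM in control and 32443, 32642 and 20085 CPM in PB-MP, without overlap (54210 ± 4699 and 28390 ± 7193 CPM). PB-MP replicate 3, which was the highest PB-MP library for most nuclear subunits, was the lowest for 6 of these 7. The exception was mt-Nd3, at 462, 907 and 771 CPM in control and 470.0, 423 and 778 CPM in PB-MP, where PB-MP replicate 3 was the highest of its group (-0.36 ± 0.33). All 7 estimates were below 0, at a median of -1.07. At an unadjusted p below 0.05 in edgeR, 3 were lower, where 4.74% of all genes were. At an adjusted p below 0.05, 0 passed in edgeR and 2 in DESeq2, which called 2.46% of all genes. mt-Nd1 had 13495, 10675 and 14509 CPM in control and 6221, 6500.0 and 5449 CPM in PB-MP (-1.09 ± 0.23, adjusted p = 0.207 in edgeR). mt-Nd4 had 22 reads in PB-MP replicate 3 and at least 28480 in every other library, and its estimate had a wide error (-1.19 ± 1.61). mt-Nd4l had 380144 reads in PB-MP replicate 3. The control means were 14049 CPM for mt-Nd4l and 694 CPM for mt-Nd4. How reads were assigned among the mitochondrial rows is not given. The levels of these genes, and sums and ratios built on them, are therefore uncertain.

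Per read of the 36 nuclear subunits, the libraries held 14.6, 20.9 and 16.3 reads of the mitochondrially encoded subunits in control and 13.9, 13.9 and 5.75 in PB-MP (17.3 ± 3.25 and 11.2 ± 4.69). All 3 PB-MP libraries were below the controls, PB-MP replicates 1 and 2 by little and PB-MP replicate 3 by much. This ratio does not depend on the scaling. Nuclear copies of mitochondrial DNA can share reads with these genes, and their transcripts carry short poly(A) tails in libraries selected for poly(A).

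**Figure D5:**
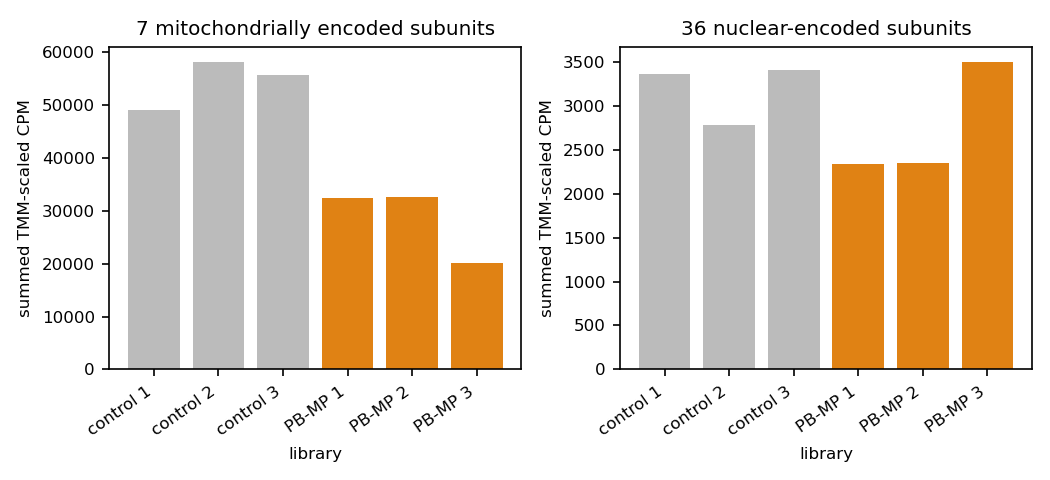
Summed TMM-scaled CPM of the 7 mitochondrially encoded complex I subunits (left) and of the 36 nuclear-encoded subunits (right) in each library, with bars from 0, control in grey and PB-MP in orange. The left panel separates the groups, with PB-MP replicate 3 lowest at 20085 CPM, while in the right panel that library is highest at 3495 CPM.

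Among the other genes with an Nduf name, Ndufa4 had 229, 252 and 275 CPM in control and 201, 179 and 353 CPM in PB-MP (-0.04 ± 0.27). As in many subunits, PB-MP replicates 1 and 2 were below every control, while PB-MP replicate 3 was above every control. Ndufa4l2, a hypoxia-inducible relative of Ndufa4, had 1.37, 0.858 and 1.59 CPM in control and 0.874, 1.25 and 1.41 CPM in PB-MP (-0.11 ± 0.33). Its libraries were intermixed at a low level. Ndufb4c and Ndufs6b carry names derived from Ndufb4 and Ndufs6, with which they may share reads, so their counts are uncertain. Ndufb4c had 7.91, 6.48 and 7.91 CPM in control and 5.97, 6.10 and 4.46 CPM in PB-MP, without overlap (-0.43 ± 0.21). Ndufs6b had 0.151, 0.412 and 0.447 CPM in control and 0.710, 0.402 and 0.308 CPM in PB-MP (0.48 ± 0.53). PB-MP replicate 3 was the lowest PB-MP library for these genes and the highest for Ndufb4 and Ndufs6.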

How the data were processed

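Raw counts of reads for each gene symbol were deposited by the authors for the 6 libraries, as whole numbers without normalization. Per the labels' protocols, mRNA was poly(A)-selected and a directional library kit was used. Of tools and builds, bcl2fastq and GRCm39 appear in the submitters' processing notes. The sources used here do not give the aligner, the counting program, its annotation or its strand setting. Of the 49 genes, 19 share exon bases with another gene in GENCODE M21, 3 on the same strand and 17 on the opposite strand.

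Genes were filtered with filterByExpr (minimum count 10, minimum total 15), which left 17871, scaled by TMM, and tested in edgeR 4.0.16 (R 4.3.3) by quasi-likelihood, with Benjamini-Hochberg adjustment over all genes. The SE is the size of the log2 fold change over the root of its F statistic, and intervals use the t quantile. Log2 CPM for deviations used a prior count of 2. Transcript lengths came from GENCODE M21 (GRCm38) and upstream windows from RefSeq (GRCm38.p6), whose build differs from GRCm39.

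Members and gene lists were chosen with earlier results of these data known. Values per library are given for the core subunits (1 is counted in its class but not reported singly here), all Ndufaf genes, the 8 accessory subunits of smallest p and the 2 of largest p, and the other Nduf-named genes. Ndufa6, Ndufb4 and Ndufb11 are named beyond this because their estimates were above 0, chosen after their values were seen, as were the other assembly and mitochondrially encoded genes picked from their lists. Ndufa11b had too few reads. Coa1, on the assembly list, was not analysed here. Replicates with the same number were not paired by the labels. Alternatives were 4 other scalings, 2 other filters, robust estimation, DESeq2 1.42.0, limma-voom of limma 3.58.1 with and without quality weights, a block by replicate number, libraries left out singly or as a pair, and ribosomal and mitochondrial rows left out. The script was tested on simulated data.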

Additional observations from a re-analysis of the deposited data

How the results depend on the processing

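The number of Nduf genes past the threshold was 0 under every alternative that was run. The number of all genes past it was 513 with DESeq2, 2 with control replicate 2 and PB-MP replicate 3 both left out, 0 to 1 with single libraries left out and 0 otherwise. Nduf genes without any overlap between groups numbered 3 to 33 with single libraries left out and 42 without the 2 libraries together. These counts take either direction, and those lower in PB-MP numbered 3 to 33 and 41. The share of all genes without overlap and lower, to be set beside the lower counts only, was 11.7% to 19.4% and 28.5% in these fits. Same-numbered libraries of the groups had correlations of deviations of -0.087, 0.094 and 0.082, so the numbers were not taken as pairs. With a replicate block 0 genes passed, 3 Nduf genes were at an unadjusted p below 0.05 and lower (3.73% of all genes), and medians were -0.33 for core, -0.25 for accessory subunits and -0.10 for assembly factors. Of the single genes given per library, 44 estimates under an alternative had the opposite sign and 487 did not, and 0 of the 44 were past the threshold on either side. With library size only they were Ndufaf1 0.0498, Ndufaf2 0.21, Ndufaf3 0.0326, Ndufaf7 0.0196, Ndufs1 0.20, Ndufb8 0.19, Ndufab1 0.20, Ndufa4 0.18 and Ndufa4l2 0.09. For Ndufaf2, Ndufs1, Ndufb8 and Ndufab1 in that order they were 0.0276, 0.0227, 0.0201 and 0.0215 with upper quartile scaling, 0.0175, 0.0139, 0.0091 and 0.012 with the stricter filter, and 0.0102, 0.0094, 0.0029 and 0.006 without ribosomal and mitochondrial rows. Ndufv2 was at -0.17 with quality weights and at -0.27 without the 2 libraries together, where Ndufaf5 was at -0.0506 and Ndufaf6 at -0.031. With single libraries left out the estimate ran from -0.26 to 0.16 for Ndufaf2, from -0.11 to 0.038 for Ndufs1, from -0.33 to 0.11 for Ndufb8, from -0.22 to 0.11 for Ndufab1, from -0.41 to 0.14 for Ndufa4, from -0.35 to 0.0752 for Ndufa4l2 and from -0.22 to 0.19 for Ndufv2. The causes of these turns were not tested. The intervals limit what 3 libraries a group can show. For 41 of 48 genes they lay within 2-fold either way, which leaves changes of under 2-fold possible. For the remaining genes they reached beyond 2-fold.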
